A study of Mus musculus with 12 samples.

Results

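The seminal vesicle secretory proteins are the abundant proteins that the mouse seminal vesicle pours into semen. Their messenger RNAs were followed here, on Illumina BeadChips, in CD45+ cells isolated from prostates of TRAMP mice that had received an adoptive T cell transfer (ACT). The genes Svs1, Svs2, Svs3a, Svs3b, Svs4, Svs5, Svs6 and Pate4 were taken by name, and each probe annotated to one of them was kept when its detection p was under 0.05 on at least 3 arrays. The 8 genes are among 19057 named on the array. All 10 of their probes met that condition, out of 45281 probes on the array, of which 23054 met it. Svs2 and Svs6 each had 2 probes, named a and b below, and the other genes had 1. CD45, encoded by Ptprc, marks the surface of leukocytes. TRAMP mice develop prostate cancer from a viral oncogene driven in prostate epithelium by the probasin promoter, and here carry it on a C57Bl/6 background. Each of the 4 groups comprised 3 mice, with 1 array each. At 1 week, named in the study design as the time of acute infiltration of the prostate, mice had received Allo/Y ACT (samples 1 to 3), Tumor ACT (samples 4 to 6) or combined Tumor+Allo/Y ACT (samples 7 to 9). Mice of the last group, Tumor+Allo/Y (d28), had received the combined transfer 28 days before (samples 10 to 12). The labels neither expand Allo/Y nor give an age, every group received a transfer, and no untreated group was analysed here.

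Seminal vesicle epithelium makes these proteins under the control of androgens. After ejaculation the SVS1, SVS2 and SVS3 proteins are cross-linked by the prostate transglutaminase TGM4 into the copulatory plug, while smaller members such as SVS4, SVS5 and SVS6 belong to the soluble part of the fluid. The gland lies beside the prostate lobes, and the genes are known from secretory epithelium rather than from leukocytes. Svs2, Svs3b, Svs4, Svs3a, Svs6 and Svs5 are consecutive protein-coding genes on mouse chromosome 2 between Wfdc15b and Slpi. Svs1 lies on chromosome 6 between Doxl2 and Gpnmb, and Pate4 on chromosome 9 between Hyls1 and Pate2.

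Intensities are given as log2 values after background correction and quantile normalization, and a difference of 1 is a doubling. Between 18981 and 21718 probes per array were above background. Ptprc was above background on all 12 arrays, with 5.37 to 5.67 on the Allo/Y arrays and 6.65 to 8.42 elsewhere. Tumor sample 6 correlated best with Tumor+Allo/Y sample 9 (r = 0.975 over the kept probes), and Tumor+Allo/Y sample 8 best with Tumor sample 4 (r = 0.9825). Whether these arrays were exchanged between the groups cannot be told apart from variation between mice, and the labels were kept as given. Directions between Tumor and Tumor+Allo/Y carry that doubt, and values without samples 6 and 8 are given where a call rests on them.

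All 10 probes had their highest group mean in Allo/Y. Relative to Allo/Y, Svs2, Svs5, Svs6 and Pate4 fell in both other 1-week groups by at least 1 probe, and Svs3b fell in Tumor+Allo/Y. The median difference over the 10 probes was −3.15 in Tumor+Allo/Y and −3.09 in Tumor, while the medians over all kept probes were 0.02 and 0.03. They rested in part on single Allo/Y arrays, being −4.24 and −4.25 without sample 2 and −2.49 and −2.39 without sample 1. Svs2, the main clotting protein, and Pate4 kept their fall in both of these comparisons when any 1 array was left out. The calls of Svs3b, Svs5 and Svs6 each failed without at least 1 array, and that of Svs6 in Tumor+Allo/Y rested on probe b alone. Svs1, Svs3a, Svs3b and Svs6 spanned up to 5.70 between the arrays of 1 group, wider than any difference of theirs between group means. Svs4 did not pass the test in any comparison.

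Svs2 encodes a semenogelin-like protein that is the main TGM4 substrate of the plug and protects sperm in the uterus. Svs2 probe a (ILMN_1254247) read 13.30, 10.99 and 13.17 in Allo/Y, 10.26, 9.93 and 8.22 in Tumor, 8.85, 10.14 and 8.88 in Tumor+Allo/Y, and 10.94, 11.58 and 10.27 at day 28. Every Allo/Y array was above every array of the other 1-week groups, with sample 2 the lowest of the 3, and the day 28 values lay on both sides of sample 2. Svs2 probe b (ILMN_2822359) read 12.70, 9.72 and 12.50 in Allo/Y, 8.69, 8.55 and 6.92 in Tumor, 7.38, 8.07 and 7.80 in Tumor+Allo/Y, and 9.24, 9.74 and 8.55 at day 28. The probes ordered the arrays almost identically (Spearman's rho 0.99 over 12 arrays, a description). By limma, Svs2 probe a fell by 3.20 ± 0.70 in Tumor+Allo/Y (9.18-fold, adjusted p = 0.00454) and fell by 3.02 ± 0.70 in Tumor (8.11-fold, adjusted p = 0.00814). The falls of Svs2 probe b were 14.8-fold and 12.0-fold (adjusted p = 0.00208 and 0.00444).

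Svs3a and Svs3b encode clotting proteins of the plug and are near-identical copies. To show how alike their control regions are, the 150 bases before each annotated start are printed 5′ to 3′ on the coding strand, from RefSeq on GRCm38.p6. Svs3a lies at chr2:164289117-164289266 on the plus strand and Svs3b at chr2:164256644-164256793 on the minus strand. Capitals mark the letters TATAAA, the core of a TATA box, and AGAACA, a half-site of the androgen receptor, on either strand.
Svs3a: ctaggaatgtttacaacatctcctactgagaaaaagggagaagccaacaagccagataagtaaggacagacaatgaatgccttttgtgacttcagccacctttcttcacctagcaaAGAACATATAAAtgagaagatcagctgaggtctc
Svs3b: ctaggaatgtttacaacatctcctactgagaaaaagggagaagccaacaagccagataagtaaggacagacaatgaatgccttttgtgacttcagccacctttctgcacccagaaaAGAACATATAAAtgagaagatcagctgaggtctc
Over the 250 bases before the starts, 244 of 250 positions were identical (97.6%). In both, AGAACA directly preceded TATAAA, 34 and 28 bases before the start.

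Svs3b (ILMN_1258886) read 14.94, 11.09 and 14.77 in Allo/Y, 7.77, 11.84 and 10.25 in Tumor, 10.01, 11.40 and 8.11 in Tumor+Allo/Y, and 9.09, 12.92 and 10.79 at day 28. Samples 1 and 3 stood above all others, and sample 2 lay inside the range of each other group. Svs3a (ILMN_1227232) read 11.04, 5.34 and 10.17 in Allo/Y, 4.54, 6.49 and 6.08 in Tumor, 5.46, 7.04 and 4.74 in Tumor+Allo/Y, and 4.68, 8.08 and 6.17 at day 28. It was not above background on samples 4, 9 and 10, and sample 2 was again among the low arrays. Svs3b fell by 3.76 ± 1.38 in Tumor+Allo/Y (adjusted p = 0.0468), but its difference of −3.65 ± 1.38 in Tumor had an adjusted p of 0.0599. For Svs3a the differences were −3.11 ± 1.36 and −3.15 ± 1.36 (adjusted p = 0.0843 and 0.0906). Over the 12 arrays the probes of the copies had a Pearson correlation of 0.95, and of 0.92 after each group's mean was removed. Probe sequences were not used here, so signal that either probe takes from the other copy cannot be told apart.

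Svs1, an amine oxidase-like protein of the plug, followed the same arrays although it lies on another chromosome. Svs1 (ILMN_1235578) read 13.54, 9.28 and 13.32 in Allo/Y, 6.98, 10.21 and 7.83 in Tumor, 8.89, 10.02 and 6.59 in Tumor+Allo/Y, and 8.08, 12.08 and 9.91 at day 28. Samples 1 and 3 were the highest, and sample 2 was below samples 5, 8, 11 and 12. The differences of −3.55 ± 1.40 in Tumor+Allo/Y and −3.71 ± 1.40 in Tumor did not pass the test (adjusted p = 0.0598 and 0.0583). Its correlation with Svs3b was 0.98 and with Svs6 probe a 0.97, and with group means removed both were 0.98. These correlations are descriptions over 12 arrays that share the normalization.

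Svs4 encodes a small basic protein whose rat counterpart is known for dampening immune responses. Svs4 (ILMN_2620984) read 14.78, 14.61 and 14.63 in Allo/Y, 13.18, 14.74 and 13.42 in Tumor, 14.58, 14.36 and 12.92 in Tumor+Allo/Y, and 12.54, 14.38 and 14.63 at day 28. The Allo/Y arrays lay within 0.16 of each other, the other groups each had at least 1 array near them, and only Tumor+Allo/Y did not overlap with Allo/Y. The differences of −0.72 ± 0.60 and −0.90 ± 0.60 did not pass (adjusted p = 0.352 and 0.262). Raw Svs4 intensities ran from 5403 to 30487, on arrays whose brightest probe read 32766 to 40545, so differences among its brightest values may be compressed by the top of the range, which was not tested.

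Svs5 and Svs6, adjacent genes for small secreted proteins, differed in how steady they were although the bases before their starts are nearly the same. Svs5 lies at chr2:164332615-164332764 and Svs6 at chr2:164316601-164316750, both on the plus strand, and the windows are printed as above.
Svs5: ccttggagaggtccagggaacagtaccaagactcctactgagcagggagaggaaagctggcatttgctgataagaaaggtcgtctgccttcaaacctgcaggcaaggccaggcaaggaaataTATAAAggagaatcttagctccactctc
Svs6: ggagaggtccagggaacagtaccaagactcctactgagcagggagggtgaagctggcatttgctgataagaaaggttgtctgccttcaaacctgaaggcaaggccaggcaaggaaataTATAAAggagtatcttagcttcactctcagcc
Identity was 96.3% (237 of 246 aligned positions), and TATAAA lay 28 and 32 bases before the annotated starts. For the other pairs of members, leaving aside Svs3a with Svs3b, identity ran from 46% to 59.8%.

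Svs5 (ILMN_1227330) read 14.63, 14.21 and 14.52 in Allo/Y, 13.26, 13.89 and 12.34 in Tumor, 13.75, 13.73 and 12.51 in Tumor+Allo/Y, and 13.49, 14.12 and 13.74 at day 28. Svs6 probe a (ILMN_2894867) read 12.69, 8.94 and 12.38 in Allo/Y, 5.93, 9.15 and 7.76 in Tumor, 8.88, 8.84 and 6.26 in Tumor+Allo/Y, and 6.72, 10.63 and 8.37 at day 28. The SD within Allo/Y was 0.22 for Svs5 and 2.08 for Svs6 probe a. No Svs5 array of another group reached the lowest Allo/Y array, whereas for Svs6 probe a sample 2 read lower than samples 5 and 11. Svs5 fell by 1.12 ± 0.41 in Tumor+Allo/Y and by 1.29 ± 0.41 in Tumor (adjusted p = 0.0443 and 0.0307). Svs6 probe a fell by 3.72 ± 1.28 in Tumor (adjusted p = 0.0417), and its difference of −3.34 ± 1.28 in Tumor+Allo/Y had an adjusted p of 0.0537. Svs6 probe b (ILMN_2771965) was above background only on samples 1, 3, 5, 8 and 11, where it read 8.98, 8.52, 5.38, 5.12 and 6.30. Against Allo/Y it fell by 2.51 ± 0.91 in Tumor+Allo/Y and 2.65 ± 0.91 in Tumor (adjusted p = 0.0437 and 0.0410), with 1 array above background in each of the lower groups. Raw Svs5 intensities reached 25701, so the limit given for Svs4 applies to it as well.

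Pate4, also known as SVS7, belongs to the PATE family of Ly6-like proteins, and the mouse gene is required to form a normal plug. Pate4 (ILMN_2797040) read 14.71, 14.08 and 14.71 in Allo/Y, 12.97, 13 and 10.69 in Tumor, 12.02, 12.59 and 11.67 in Tumor+Allo/Y, and 13.12, 13.83 and 12.65 at day 28. Allo/Y did not overlap with any other group, and sample 6 was the lowest array. Raw Pate4 intensities reached 28560, so the limit given for Svs4 applies to Pate4 as well. Pate4 fell by 2.41 ± 0.56 in Tumor+Allo/Y (5.31-fold, adjusted p = 0.00626) and by 2.28 ± 0.56 in Tumor (4.84-fold, adjusted p = 0.0109). Over the 12 arrays its correlation was 0.95 with Svs2 probe a, 0.92 with probe b, 0.91 with Svs5 and 0.47 with Svs4.

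**Figure D1:**
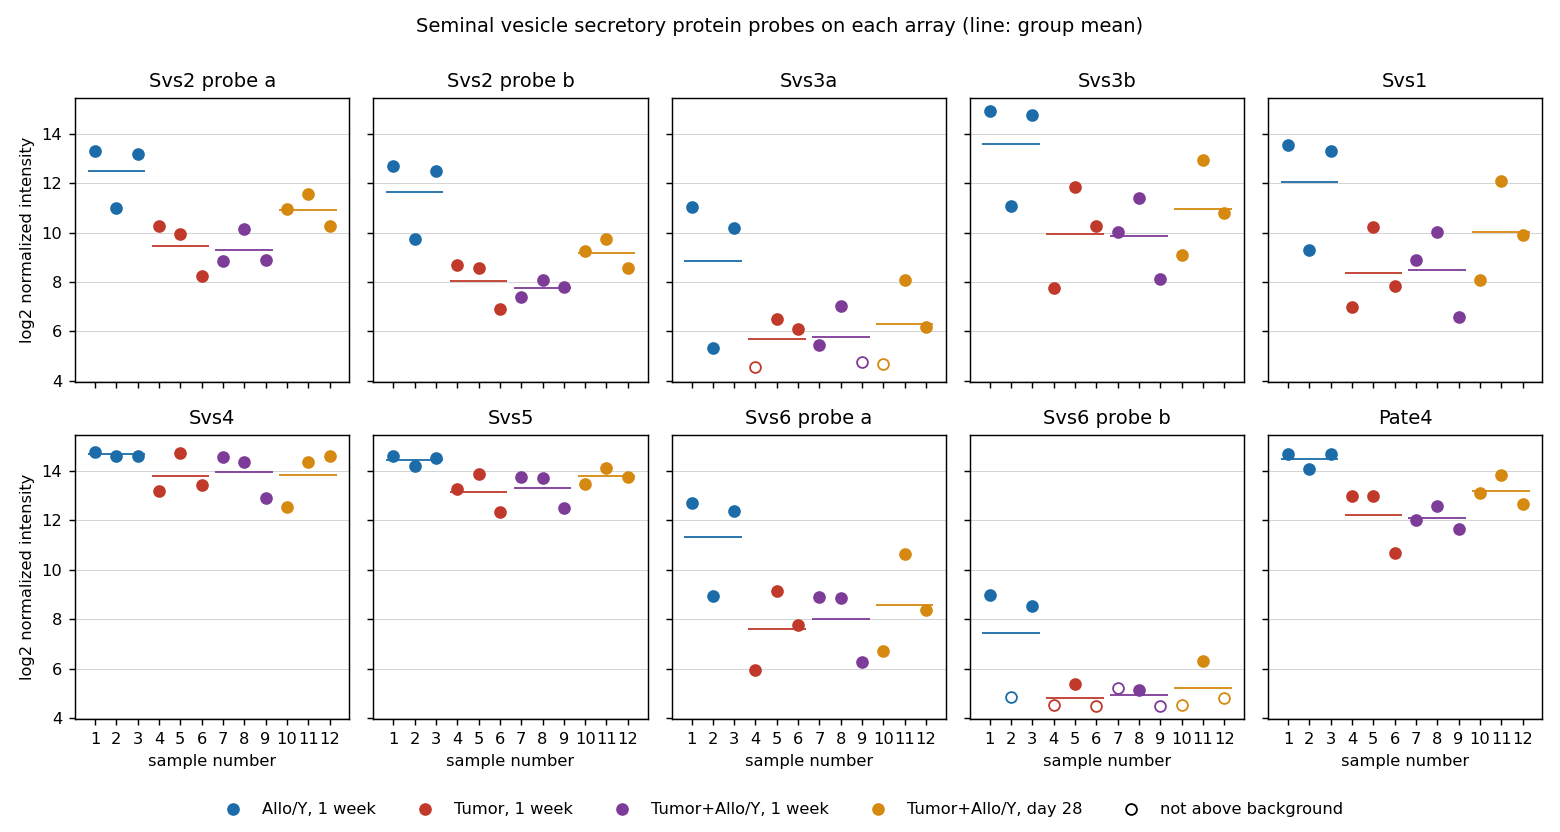
Log2 normalized intensity (vertical axis) of the 10 probes on each of the 12 arrays (horizontal axis, sample number), with a line at each group mean and open circles where the probe was not above background. Samples 1 and 3 are high in every panel. Sample 2 drops to the level of the other groups for Svs1, Svs3a, Svs3b and both Svs6 probes, and into the day 28 range for both Svs2 probes. It stays close to samples 1 and 3 for Svs4, Svs5 and Pate4, though for Svs4 arrays of other groups also reach its level.

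Setting Tumor+Allo/Y against Allo/Y asks what the combination adds to Allo/Y transfer at 1 week. Of the 10 probes, 6 were lower (both of Svs2, Svs3b, Svs5, Svs6 probe b and Pate4) and 0 higher, where 23.7% of all kept probes were lower and 20.8% higher. Groups did not overlap, with Tumor+Allo/Y lower, for 6 of the 10 (Svs2 a and b, Svs4, Svs5, Svs6 probe a and Pate4), against 30.6% of all kept probes. The calls of Svs3b, Svs5 and Svs6 probe b depended on single arrays. Without any 1 of samples 1, 3, 7, 9 and 12 the count was 3, which were both Svs2 probes and Pate4. In those fits 16% to 22.8% of all kept probes were lower. Adjusted p rose to at most 0.16 for Svs3b, 0.167 for Svs5 and 0.165 for Svs6 probe b. Leaving out sample 2 gave 8 lower probes, where 18.8% of all kept probes were lower. Sample 2 was the lowest Allo/Y array for 10 of 10 probes, so its removal widens each fall from Allo/Y. Svs1 then fell by 4.93, Svs3a fell by 4.86 and Svs6 probe a fell by 4.54 (adjusted p = 0.0177, 0.00553 and 0.0192), while Svs5 had an adjusted p of 0.0657. Without samples 6 and 8, 7 probes were lower (28.8% of all kept probes). Svs6 probe b was then lost (−2.60, adjusted p = 0.0559), and Svs1 (−4.31, adjusted p = 0.0336) and Svs6 probe a (−3.77, adjusted p = 0.0478) were gained.

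Tumor against Allo/Y, which shares the Allo/Y arrays with the preceding comparison, also gave 6 lower probes and 0 higher (19.1% of all kept probes lower and 17.8% higher). They were both of Svs2, Svs5, both of Svs6, and Pate4, and groups did not overlap for 4 probes (27.1% of all kept probes), those of Svs2, Svs5 and Pate4. The count was 3 without any 1 of samples 1, 3 and 6 (11.1%, 12.2% and 14.7% of all kept probes lower). It was also 3 without samples 6 and 8 (19.8% of all kept probes). Svs5 (−0.88), Svs6 probe a (−3.80) and Svs6 probe b (−2.50) then had adjusted p values of 0.0708, 0.0653 and 0.0883. Without sample 2 the count was 8 (13.2% of all kept probes). Leaving out each array in turn kept both Svs2 probes (adjusted p up to 0.0374) and Pate4 (up to 0.0411).

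Tumor+Allo/Y against Tumor asks what the Allo/Y component adds to Tumor transfer. None of the 10 probes passed the test, and neither limma's adjusted p nor an unadjusted p under 0.05 singled out any. Of all kept probes, 0% were lower and 0.00434% higher, and 989 had an unadjusted p under 0.05. Differences ran from −0.30 for Svs2 probe b to 0.38 for Svs6 probe a, all with adjusted p = 1. The 95% interval for Svs5 was −0.73 to 1.06, but for Svs1 it was −2.92 to 3.24, so sizeable differences of the variable members were not detectable with 3 arrays a group. Without samples 6 and 8, Pate4 differed by −1.14 (adjusted p = 0.0469) and was the 1 probe called lower, where 9.99% of all kept probes were.

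Over time, from 1 week to day 28 of the combined transfer, 9 of the 10 differences were positive, and none passed the test, where 0.447% of all kept probes were lower and 2.2% higher. Svs2 probe a came out 1.64 ± 0.70 higher (adjusted p = 0.229), Svs2 probe b 1.43 ± 0.73 (adjusted p = 0.31) and Pate4 1.11 ± 0.56 (adjusted p = 0.303). For these 3 of 10 probes each day 28 array was above each 1-week array, as for 12.9% of all kept probes. Svs2 probe a was the 1 member probe with an unadjusted p under 0.05. Without samples 6 and 8, the 2-array Tumor+Allo/Y group gave 2 higher probes, Svs2 probe a (2.07, adjusted p = 0.0368) and Pate4 (1.36, adjusted p = 0.0143), where 11.2% of all kept probes were higher.

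Day 28 against Allo/Y, again with the same Allo/Y arrays, left 1 of 10 probes lower and 0 higher, where 21.8% of all kept probes were lower and 19.9% higher. Svs2 probe b fell by 2.46 ± 0.73 (adjusted p = 0.0204), and its adjusted p was 0.0835, 0.0791, 0.0517 and 0.0742 without samples 1, 3, 10 and 12 in turn. Groups did not overlap, with day 28 lower, for Svs5 and Pate4 (2 of 10, against 31.9% of all kept probes). Svs2 probe a differed by −1.56 ± 0.70 (adjusted p = 0.0968) and Pate4 by −1.30 ± 0.56 (adjusted p = 0.0857). The other 7 probes lay at −0.67 to −2.76 (adjusted p = 0.0694 to 0.298). Without sample 2, 5 probes were lower (17% of all kept probes), among them Svs3a (−4.30, adjusted p = 0.00905). Without sample 6 or sample 11 the count was 2 of 10, where 25.9% and 18.4% of all kept probes were lower. Over all 4 groups, the moderated F test called 3 of 10 probes, both of Svs2 and Pate4, where it called 42.9% of all kept probes. It called 7 without sample 2 and 1 without sample 1 or sample 3, and the shares of all kept probes in those fits are not given here.

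**Figure D2:**
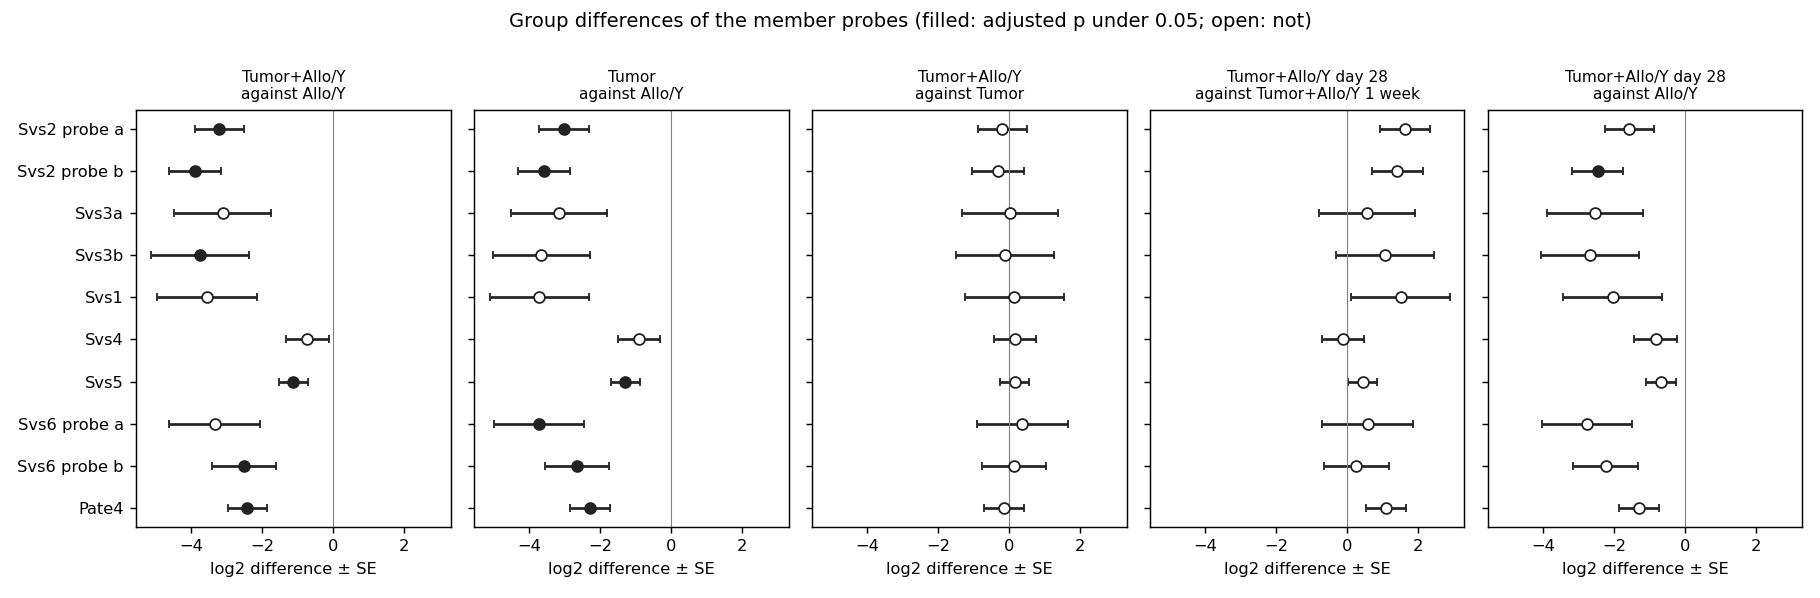
Log2 difference with its standard error (horizontal axis) for each of the 10 probes (vertical axis) in 5 comparisons of 3 arrays against 3, with filled points at an adjusted p under 0.05. All points against Allo/Y lie below 0, with the shortest distances for Svs4 and Svs5, and those of Tumor+Allo/Y against Tumor lie between −0.30 and 0.38.

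Spread within groups differed between members and between groups. In Allo/Y the SD over 3 arrays ran from 0.09 for Svs4 to 3.07 for Svs3a, while over all kept probes its median was 0.14 and its 95th percentile 0.43, which 7 of the 10 member probes exceeded. At day 28 the 95th percentile was 0.56, exceeded by 9 of 10. In Tumor it was 1.15, exceeded by 4 of 10, and in Tumor+Allo/Y 0.82, exceeded by 5 of 10. Sample 2 was the lowest Allo/Y array for 10 of 10 probes, and day 28 sample 11 the highest of its group for 9 of 10. In Tumor, sample 5 was the highest for 8 of 10, and in Tumor+Allo/Y, sample 9 the lowest for 8 of 10. Since the probes share the arrays, these counts describe arrays and are no replication.

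The gap between sample 2 and the mean of samples 1 and 3 differed widely among members. It was −5.26 for Svs3a, −4.15 for Svs1, −3.93 for Svs6 probe b, −3.76 for Svs3b and −3.59 for Svs6 probe a. It was smaller for Svs2 probe b (−2.88) and probe a (−2.24), and under 1 for Pate4 (−0.62), Svs5 (−0.36) and Svs4 (−0.09). Gaps and SDs of Pate4, Svs5 and Svs4 in Allo/Y may be compressed by the top of the range, as said for Svs4, which was not tested. Over all kept probes the 5th and 95th percentiles of this gap were −0.49 and 0.42, and 22 probes lay below −2, of which 7 were member probes. The most negative gap of all was that of Sva (−5.64), seminal vesicle antigen, and that of Ceacam10, a sperm-binding protein of mouse seminal vesicle fluid, was −4.06. Pate14, another PATE family gene, had −2.64. Of the 6 measured plug and seminal fluid partners, 4 lay below −0.49, the others of them being Spink1 (−1.89) and Tgm4 (−0.83). Pip, prolactin-inducible protein, went the other way with 5.97. Sample 2 was the only Allo/Y array with Pip above background, as were 3 arrays of other groups, so low signal limits its gaps. Among the 12 epithelial genes 2 lay below −0.49, Elf5 (−1.55) and Krt14 (−1.18), with a median of −0.11 and a highest gap of 1.16. Of the 7 prostate genes 1 did, Pbsn (−0.70), with a median of 0.21. Endothelial genes shared the drop more often, with 8 of 10 below −0.49, a median of −1.10 and none below −1.54.

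Day 28 sample 11 exceeded sample 10 most in members that also had wide gaps of sample 2, by 4.00 in Svs1, 3.91 in Svs6 probe a, 3.83 in Svs3b and 3.39 in Svs3a. Svs4 followed with 1.84 and Svs6 probe b with 1.78, although their gaps of sample 2 were −0.09 and −3.93. Svs2 probe a, Svs2 probe b, Svs5 and Pate4 differed by 0.64, 0.5, 0.63 and 0.71. Of the 6 measured partners, Sva, Ceacam10, Spink1 and Rnase1 differed by 4.11, 3.79, 2.87 and 0.53. Tgm4 differed by −0.20, and Pip went the other way with −2.23. In Tumor, sample 5 exceeded sample 4 by 4.08 in Svs3b, 3.23 in Svs1 and 3.22 in Svs6 probe a, whereas Svs2 probe a, Svs2 probe b and Pate4 differed by −0.33, −0.15 and 0.03. These array pairs were chosen after the values were seen, and no test was run on them.

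**Figure D3:**
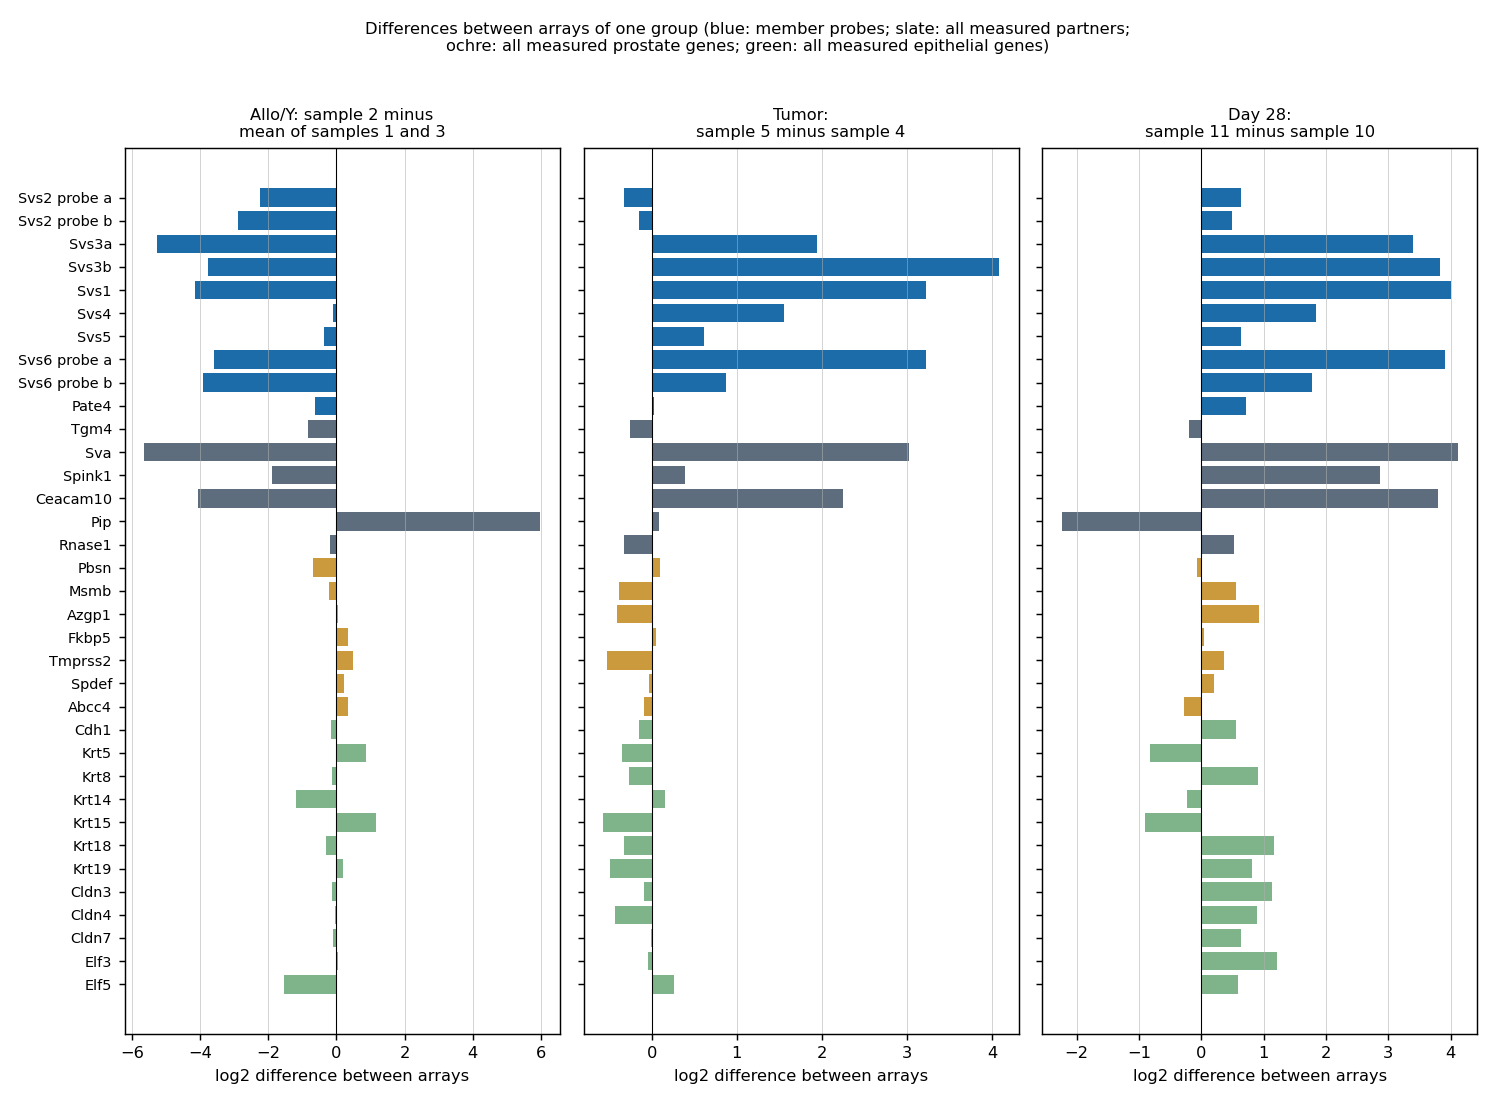
Log2 difference between arrays of 1 group (horizontal axis) for the 10 member probes (blue) and every measured gene of 3 lists, 6 plug and seminal fluid partners (slate), 7 prostate genes (ochre) and 12 epithelial genes (green), in Allo/Y, Tumor and day 28. Svs1, Svs3a, Svs3b, Svs6 probe a, Sva and Ceacam10 differ by at least 1.94 in all 3 panels. Pip, above background on only 1 Allo/Y array, is opposite in Allo/Y (5.97) and at day 28 (−2.23). The epithelial and prostate genes stay between −1.55 and 1.21.

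Other genes of the plug and seminal fluid were mostly lower in Tumor+Allo/Y and Tumor than in Allo/Y, whereas at day 28 most did not pass the test. Of 10 listed partners 6 were measured, of which 5 were lower in Tumor+Allo/Y than in Allo/Y, 0 higher and 1 not past the test, with a median of −3.09 (23.7% of all kept probes lower). The exception was Pip, at −1.89 ± 1.65 in Tumor+Allo/Y and 1.41 ± 1.65 in Tumor (adjusted p = 0.372 and 0.528). Tgm4 fell by 3.16 ± 0.81 (adjusted p = 0.00995), Spink1, a trypsin inhibitor, by 2.86 ± 0.85 (adjusted p = 0.0198) and Rnase1, a secreted ribonuclease, fell by 3.02 ± 1.00 (adjusted p = 0.0309). Sva fell by 4.37 ± 1.51 (adjusted p = 0.0372), with 1 of 3 Tumor+Allo/Y arrays above background, and Ceacam10 fell by 3.30 ± 1.21 (adjusted p = 0.0458). In Tumor 4 of the 6 were lower (19.1% of all kept probes). At day 28 against Allo/Y 1 of 6 was (21.8% of all kept probes), namely Spink1 (−2.53 ± 0.85, adjusted p = 0.0346).

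Genes of the Wfdc protease inhibitor and PATE families, among them the members' neighbours, numbered 33 on the list and 14 as measured. Tumor+Allo/Y had 11 of them lower and 1 higher (median −1.91), where 23.7% of all kept probes were lower and 20.8% higher. Day 28 had 7 of them lower against Allo/Y (21.8% of all kept probes). Among them, Wfdc8 was above background in Allo/Y alone, and without it the lower counts were 10 and 6. The genes that flank the Svs cluster moved in opposite directions in Tumor+Allo/Y, both named after their values were seen. Wfdc15b fell by 3.45 ± 0.85 in Tumor+Allo/Y (adjusted p = 0.00839), and Slpi, which encodes a secreted inhibitor of leukocyte proteases, rose by 2.47 ± 0.63 (adjusted p = 0.00981). In Tumor, Slpi differed by 1.20 ± 0.63 and did not pass (adjusted p = 0.157). Eppin, a sperm-coating protease inhibitor, fell by 1.97 ± 0.21 in Tumor+Allo/Y (adjusted p = 0.000111, 1 of 3 arrays above background). It was above background on all 3 Allo/Y arrays and on 2 others, so it too entered the test only through the group where it is high. The counts given without Wfdc8 still include Eppin. Wfdc6b fell by 3.48 ± 0.65 (adjusted p = 0.00202) and Wfdc3 by 2.84 ± 0.57 (adjusted p = 0.00297). Wfdc10 was not above background in Tumor+Allo/Y and was at least 2.85-fold lower (adjusted p = 0.00654). The fold is measured against the lowest signal above background.

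Prostate secretory and androgen-dependent genes, 7 of 12 measured, had 5 lower in Tumor+Allo/Y (median −1.67), 5 in Tumor and 4 at day 28. Of all kept probes, 23.7%, 19.1% and 21.8% were lower in these comparisons. Spdef, a transcription factor of secretory epithelium, fell by 2.51 ± 0.56 (adjusted p = 0.00522), and Fkbp5, an androgen-induced co-chaperone, by 1.67 ± 0.43 (adjusted p = 0.00985). The membrane protease gene Tmprss2 fell by 2.40 ± 0.85 (adjusted p = 0.0402), and Azgp1, outside the naming rule, fell by 3.02 ± 1.10 (adjusted p = 0.0453). Pbsn, whose promoter drives the TRAMP transgene, was above background on the 3 Allo/Y arrays alone, at 5.20 to 6.58. It therefore entered the test only through the group where it is high, and without it 4 prostate genes were lower in Tumor+Allo/Y, 4 in Tumor and 3 at day 28.

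Against Allo/Y, epithelial genes shifted in the direction of the members, and leukocyte genes in the opposite direction. Of 14 epithelial identity genes 12 were measured, with Epcam and Ehf above background on no array. In Tumor+Allo/Y 5 were lower, 0 higher and 7 not past the test (median −1.93), where 23.7% of all kept probes were lower. The 5 lower genes were Elf5 (−3.81), Krt14 (−3.37), Krt5 (−2.12), Cldn7 (−0.91) and, outside the naming rule, Krt15 (−2.22). The summed log2 level of the 12 was 135 to 137.3 in Allo/Y, 87.7 to 122.5 in Tumor, 106.1 to 121.1 in Tumor+Allo/Y and 116.6 to 125.3 at day 28. All 14 measured leukocyte identity genes of 16 were higher in Tumor+Allo/Y, in Tumor and at day 28 than in Allo/Y (20.8%, 17.8% and 19.9% of all kept probes). Their sum was 144.2 to 147.7 in Allo/Y, 166.8 to 173.1 in Tumor, 170.3 to 172 in Tumor+Allo/Y and 171.1 to 174.3 at day 28, with Cd8a above background on no array and Cd68 without a probe. The part of these shifts in the members' falls was not tested, and in bulk RNA fewer cells of a type and less RNA per cell cannot be told apart. Endothelial genes had 7 of 10 lower in Tumor+Allo/Y (median −1.18), where 23.7% of all kept probes were lower. Tie1, among the 7, was above background on 3 Allo/Y arrays and 1 other, so it entered the test only through Allo/Y. Fibroblast and smooth muscle genes had 1 of 9 lower there, Pdgfra (median −0.18).

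Mean log2 levels of the 12 epithelial genes were 11.44, 11.25 and 11.27 in samples 1, 2 and 3. That was the order of arrays in the members, but samples 2 and 3 were nearly level. The span was narrower than the 5.70 of Svs3a. Elf5 (9.71, 7.72 and 8.84) and Krt14 (12.15, 10.66 and 11.53) had that order with wider spans. They were the 2 of 12 epithelial genes whose gap of sample 2 lay below −0.49, the median gap being −0.11. Krt5 (7.68, 8.46 and 7.50) was highest in sample 2, and Krt15 had a gap of 1.16. At day 28 the means of the 12 were 9.95, 10.44 and 9.72. Sample 11 was highest in these genes as in 9 of the 10 member probes. Sample 12 was the lowest here, but sample 10 in 7 of the 10 member probes. In Tumor the means were 10.21, 10.02 and 7.31. Sample 6, the lowest, was also the lowest for 5 of the 10 member probes, including both of Svs2 and Pate4. Sample 4, the highest in these genes, was the lowest for the other 5 (Svs1, Svs3a, Svs3b, Svs4 and Svs6 probe a). The part of the epithelial level in these array differences was not tested. Krt14, a basal keratin, rose from 1 week to day 28 by 3.40 ± 0.67 (adjusted p = 0.0307), the 1 epithelial gene past the test.

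**Figure D4:**
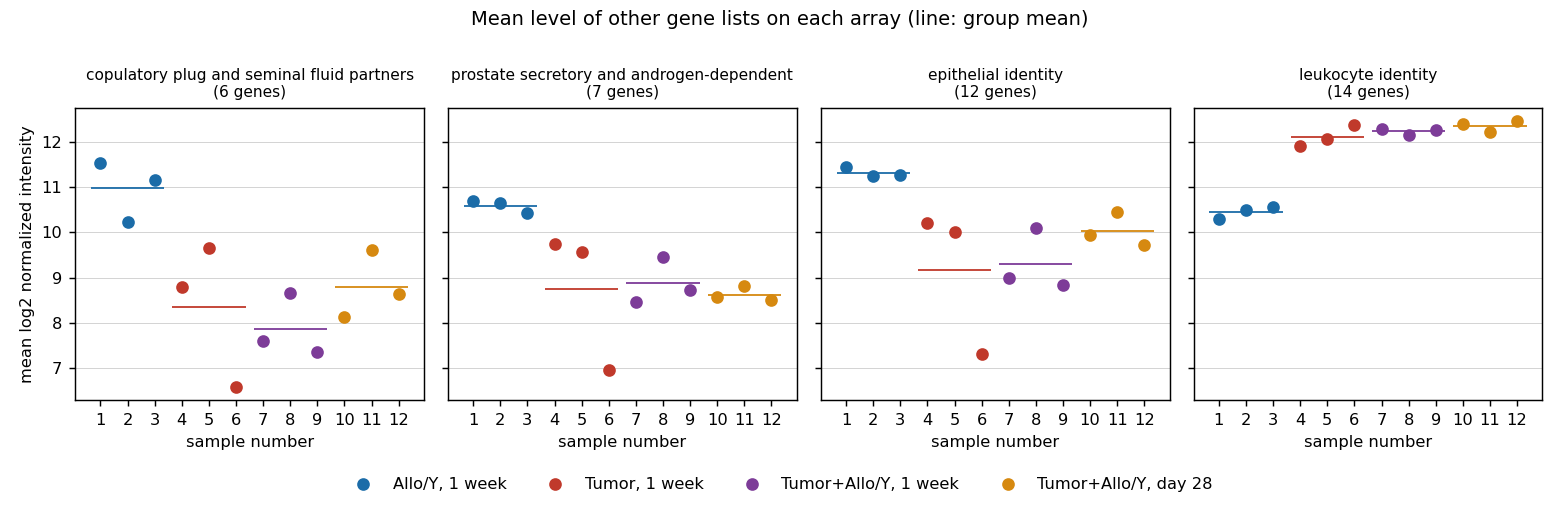
Mean log2 normalized intensity (vertical axis) of 4 gene lists on each array (horizontal axis, sample number), with a line at each group mean. The leukocyte genes lie at 10.30 to 10.55 in Allo/Y and at 11.91 or more elsewhere, while the epithelial and prostate lists are highest in Allo/Y.

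Among 11604 other genes, those most like the members were ranked by the mean Pearson correlation of log2 values with the 10 probes over 12 arrays. Ceacam10 led with 0.88, followed by Pate14 (0.87), Gadd45a (0.86), Sva (0.85), Spink1 (0.84), Aloxe3 (0.84), Tex30 (0.83) and Unc5b (0.83). Ceacam10 fell in Tumor as well, by 3.56 ± 1.21 (adjusted p = 0.0401). Pate14 fell by 4.26 ± 1.05 in Tumor+Allo/Y and fell by 4.29 ± 1.05 in Tumor (adjusted p = 0.00818 and 0.0105), and also at day 28 against Allo/Y, by 3.29 ± 1.05 (adjusted p = 0.0275). Since Allo/Y stands apart from the other groups, these correlations mix the difference between groups with that within them, and they are descriptions. Among the members themselves, the mean correlation with the other probes was highest for Svs1 (0.86) and lowest for Svs4 (0.60).

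The windows of 150 bases before the starts were available for 7 of the 8 genes, without Pate4. TATAAA on either strand stood in 5 of 7 (Svs3a, Svs3b, Svs4, Svs5 and Svs6), against 7.57% of 32851 promoter windows in the table. AGAACA stood in 3 of 7 (Svs1, Svs3a and Svs3b), against 9.62%. The paralogues share ancestry, so these are not independent matches, and a match is a description of letters.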

How the data were processed

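The table deposited by the authors gives a raw signal intensity per probe and array on a linear scale, with a detection p-value in the next column, paired to its array per the file headers. A second table deposited by the authors holds normalized intensity values of the same probes. The submitters' processing notes name GenomeStudio without a version. The files state neither scale nor normalization, which were inferred from their values. Array design and genome build are not given in the sources used here.

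With R 4.3.3 and limma 3.58.1, the function neqc was applied to the raw intensities. It estimates background from the detection p-values, and was run with offset 16, then quantile normalization and log2. The fit kept 23054 of 45281 probes, those detected at p under 0.05 in 3 or more arrays. Of all probes, 34885 carried 1 gene symbol in GEO's platform annotation, 18 several and 10378 none. A limma model with a mean for each of 4 groups was fitted to all 12 arrays (lmFit, eBayes, 8 residual and 2.74 prior degrees of freedom). It gave 5 pairwise comparisons and a moderated F test, two-sided, with Benjamini-Hochberg adjustment over the kept probes and a call at an adjusted p under 0.05. Errors of differences are standard errors. The labels say 3 mice per group. The number of arrays limits the precision, and an exact test of 3 against 3 arrays cannot give a p under 0.1.

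Every probe of a member was reported. For each other list 1 probe a gene was used, that with the highest mean, and up to 4 genes with the smallest p in Tumor+Allo/Y against Allo/Y were named, besides the 8 genes most correlated with the members. The members and lists were chosen with earlier results of these data known. The pipeline was tested on simulated data. Other settings changed background correction, normalization, filter, probe choice, arrays in the fit, variance model and minimum fold, and left out arrays.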

Additional observations from a re-analysis of the deposited data

How the results depend on the processing

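No paired analysis was possible because the sample numbers run from 1 to 12 and no number is shared between groups. Of 27 other settings, 12 left out 1 array each. Both Svs2 probes were lower in Tumor+Allo/Y and in Tumor than in Allo/Y under all settings that measured them, and Pate4 under all but a minimum fold of 1.5 in Tumor. The authors' normalized table gave 7, 6 and 1 lower probes in Tumor+Allo/Y, Tumor and day 28 against Allo/Y, where the main setting gave 6, 6 and 1.

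In Tumor+Allo/Y against Allo/Y, 3 probes were lower without normalization between arrays, without a filter and with a minimum fold of 1.5. Of all tested probes, 12.2% were lower without a filter and 5.13% with the minimum fold. Without normalization, 9.3% of all kept probes were lower and 31.8% higher, against 23.7% and 20.8%, the median of all was 0.28, and that of the members −2.82. In Tumor against Allo/Y the count was 3 without a filter, with only the arrays of the 2 groups and without samples 6 and 8. Of all tested probes, 8.7%, 13.2% and 19.8% were lower under these settings. With a minimum fold of 1.5 the count was 2 (1.78% of all tested probes). In day 28 against Allo/Y the count was 0 without a filter, with 1 probe a gene (Svs2 probe b is not used then) and with a minimum fold of 1.5. Of all tested probes, 10.9%, 24.4% and 4.72% were lower under these settings. It was 3 with only the 2 groups (27.4% of all tested probes) and without samples 6 and 8 (28.1%), and 4 with array weights (29.7%). Scaling arrays to the same mean of pan-leukocyte genes called 10 of 10 probes lower in each comparison against Allo/Y and 10 by the F test. That shift moves the median of all kept probes to −2.05 in Tumor+Allo/Y, where the members' median was −5.22 and 92.5% of all probes were lower. Array weights, whose fit stopped before it converged, called 8 by the F test. They called 1 lower in Tumor+Allo/Y against Tumor (Pate4, −1.03, adjusted p = 0.0288), where 13.8% of all kept probes were lower. Over time they called 1 higher, where 8.46% of all kept probes were higher. Without samples 6 and 8 the last pair of counts was 1 and 2 (9.99% and 11.2% of all kept probes). Shares of all kept probes for the F test under other settings are not given here. Leaving out each array gave 3 to 8 lower probes in Tumor+Allo/Y and 3 to 8 in Tumor against Allo/Y, 0 to 5 at day 28, and 1 to 7 by the F test. In the first 3 of these, 16% to 27.1%, 11.1% to 20.6% and 15.9% to 25.9% of all kept probes were lower. The cause of these changes was not tested.

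In the main setting differences between Tumor+Allo/Y and Tumor lay near 0 and changed sign easily, none of those in the next sentences past the test. Without normalization they were 0.09 for Svs2 probe a, 0.04 for Svs3b and 0.15 for Pate4, and with the leukocyte mean −0.10 for Svs3a. With array weights they were −1.95 for Svs1, −1.06 for Svs3a, −0.75 for Svs4, −0.57 for Svs5, −0.43 for Svs6 probe b and −1.16 for Svs6 probe a. Without samples 6 and 8 they were −0.85 for Svs1, −0.42 for Svs3a, −0.21 for Svs4, −0.45 for Svs5 and −0.10 for Svs6 probe b. Leaving out each array, they ran from −0.60 to 1.12 for Svs1, −0.80 to 0.22 for Svs2 probe a, −0.87 to 0.01 for Svs2 probe b, −0.61 to 0.54 for Svs3a, −1.20 to 0.83 for Svs3b, −0.14 to 0.69 for Svs4, −0.24 to 0.58 for Svs5, −0.46 to 1.25 for Svs6 probe a, −0.01 to 0.44 for Svs6 probe b and −0.90 to 0.26 for Pate4. Over time, Svs4 differed by 0.10 without samples 6 and 8. Leaving out each array, the differences over time ran from −0.62 to 0.55 for Svs4, −0.32 to 1.38 for Svs3a, −0.44 to 1.51 for Svs6 probe a and −0.27 to 0.62 for Svs6 probe b. In Tumor against Allo/Y, Svs4 differed by 0.06 with array weights. Low signal limits Svs3a and Svs6 probe b, and the top of the range may limit Svs4, Svs5, Svs3b and Pate4.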
